A study of Homo sapiens with 40 samples.

Results

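The genes described here are 48 mRNAs that act from the G2/M transition to the end of cell division, given as a list of symbols by their known roles. The rule for the list uses no measured value, but the list was drawn up with earlier results of these data known. All 48 symbols were found among the 19962 genes of the deposited count table through GENCODE release 29, each in 1 row, and all 48 passed the filter on low counts that left 11428 genes for testing. They were sorted into 9 roles: the CDK1-cyclin engine (9 genes), mitotic kinases (3), the chromosomal passenger complex (4), the spindle checkpoint (5), anaphase and the anaphase-promoting complex (5), kinetochore and centromere (5), spindle motors and microtubule proteins (8), cytokinesis (7) and mitotic chromosome proteins (2).

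The series measured poly(A) RNA of RKO, an established cell line from a human colorectal carcinoma, in 40 libraries that form 10 groups of 4. Every line carried Cas9 under a doxycycline (Dox) inducible promoter together with GFP, and a BFP-marked pair of guide RNAs expressed from a human and a mouse U6 promoter. BFP-positive cells were sorted, and the labels do not mention single clones. The guides targeted the non-coding AAVS1 locus (sgAAVS1), the RNA-binding protein IGF2BP2 (sgIGF2BP2) or its paralog IGF2BP3 (sgIGF2BP3). Each line was given the solvent DMSO or Dox at 250 ng/mL for 72 hours. The sgIGF2BP2 line was also transfected with a non-targeting siRNA (siControl) or an siRNA pool against IGF2BP2 (siIGF2BP2), and the sgIGF2BP3 line with siControl or a pool against IGF2BP3 (siIGF2BP3), at 75 nM for 48 hours. All 10 groups had received the nucleoside s4U at 250 µM for 2 hours. Each library came from 1 well of a 24-well plate, and the labels do not say that the wells were separate cultures, so p-values measure the spread between these samples, which may be technical.

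Entry into mitosis is driven by the kinase CDK1 bound to cyclins B and A, and exit from it by the anaphase-promoting complex, which marks cyclins and the anaphase inhibitor securin for destruction. Most mRNAs of this programme rise in G2 and mitosis, when the factors B-MYB and FOXM1 act with the MuvB complex. In resting or arrested cells MuvB joins the DREAM complex, which represses the same genes, and p53 acts on them through the CDK inhibitor p21. The promoter letters bound by MuvB are known as the cell cycle genes homology region (CHR), and CCAAT letters bound by NF-Y often lie close to them.

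These letters were looked for in RefSeq promoters (GRCh38.p14), of which 40 of the 48 genes had an entry. The motifs searched were TTTGAA and TTCGAA for the CHR and CCAAT, on both strands, in the 250 bases before the start. Where several starts were listed (5 of the 48 genes), the first was used. CHR letters were found in 57.5% of the 40 promoters, against 14.6% of all 27305 promoters of the same length and 9.36% of those of genes tested here. CCAAT was found in 82.5% of them, against 33% of all promoters and 35.4% of those of genes tested. Both occurred together in 21 of 40 (52.5%), against 5.24% of all promoters. The other gene lists read below, of 10 to 22 promoters each, were often above the shares of all promoters too. They held CCAAT in 35.3% (anaphase-promoting complex) to 63.6% (G1/S) of promoters. CHR letters lay in 5.88% (p53 targets) to 30% (genes around mitotic entry) of them. These counts describe letters only, and binding was not measured. Stretches are shown for 6 named genes that hold both motifs upstream of every annotated exon, with the motifs in capitals and all in the direction of the gene. Reverse-strand matches read TTCAAA and ATTGG, and in MKI67 a CHR match and a CCAAT match overlap.
ECT2, chr3:172750601-172750681, forward strand: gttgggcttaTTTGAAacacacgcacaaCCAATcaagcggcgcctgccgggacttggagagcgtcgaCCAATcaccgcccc
MKI67, chr10:128126424-128126531, reverse strand: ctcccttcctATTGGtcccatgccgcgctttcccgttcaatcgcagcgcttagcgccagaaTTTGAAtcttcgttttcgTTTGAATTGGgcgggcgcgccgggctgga
KIF4A, chrX:70290036-70290089, forward strand: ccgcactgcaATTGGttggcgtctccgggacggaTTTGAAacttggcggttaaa
CDK1, chr10:60778160-60778330, forward strand: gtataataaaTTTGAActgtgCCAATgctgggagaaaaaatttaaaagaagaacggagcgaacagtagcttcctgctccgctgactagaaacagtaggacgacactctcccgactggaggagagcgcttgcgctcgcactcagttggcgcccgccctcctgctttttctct
CDC20, chr1:43358793-43358954, forward strand: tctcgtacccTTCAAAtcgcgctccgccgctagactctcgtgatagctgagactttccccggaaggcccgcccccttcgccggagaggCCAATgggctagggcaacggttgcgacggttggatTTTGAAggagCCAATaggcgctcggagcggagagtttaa
TOP2A, chr17:40417951-40418146, reverse strand: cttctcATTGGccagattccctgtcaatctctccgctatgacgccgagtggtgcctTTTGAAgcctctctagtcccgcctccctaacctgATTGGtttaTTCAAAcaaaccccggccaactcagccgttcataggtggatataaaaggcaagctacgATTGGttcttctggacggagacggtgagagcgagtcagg

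Library totals ranged from 10018181 to 24822807 counts. IGF2BP2 stood at 33.9 ± 3.50 CPM (SD, n = 4) after Dox in sgIGF2BP2 cells against 85.3 ± 1.58 with DMSO, and at 30.2 ± 1.08 after siIGF2BP2 against 108 ± 4.10 with siControl. Its paralog IGF2BP3 was lower in the sgIGF2BP2 Dox libraries too, at 151 ± 4.24 against 179 ± 9.22 CPM without overlap (log2 fold change −0.25, edgeR adjusted p = 2.93e-06), so results of the IGF2BP2 knockout come from cells with less of both mRNAs. IGF2BP3 stood at 56.2 ± 3.62 CPM after Dox in sgIGF2BP3 cells against 180.2 ± 4.09 with DMSO, and at 24.7 ± 1.56 after siIGF2BP3 against 169.8 ± 4.78 with siControl. CPM is a count relative to the TMM-scaled size of its library. The epithelial markers EPCAM, KRT8 and KRT18 and the colonic marker CDX2 had counts in all 40 libraries, while KRT19 had a count in 4, CDH1 in 8 and VIL1 in 5. Fibroblast, leukocyte and endothelial markers stayed at or below 1.10 CPM in each library except CD68, which ranged from 1.11 to 3.52 CPM. Replicate 2 of sgIGF2BP2 Dox stood apart, with a chi-square per gene of 11.6 to 16.3 against its replicates where the median over all replicate pairs was 2.27. Replicate 3 of siIGF2BP2 stood apart as well, at 5.59 to 6.40 against its replicates, where the pairs without it lay at 1.49 to 1.83.

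Per kilobase of annotated exon, the most abundant of the 48 were CKS2, a CDK-binding subunit, at a median of 165 CPM per kb over the 40 libraries, the ubiquitin-conjugating enzyme UBE2C at 122, and the anaphase activator CDC20 at 90.6. The lowest were NUSAP1 at 0.218, PRC1 at 0.277 and HMMR at 1.01 CPM per kb. NUSAP1 and PRC1, which bundle spindle microtubules, had 1 to 18 and 9 to 39 counts per library. A change in them was not detectable at this depth unless large. Both share exon bases with another gene on the same strand. AC068831.7 had a median of 3.91 CPM where PRC1 had 1.53, and AC087721.2, which overlaps NUSAP1, had 0 counts. The levels of NUSAP1 and PRC1 are therefore uncertain, and whether the overlaps had a part in them was not tested. Exons of CCNA2, CDC25C, FOXM1, PLK1, CDCA3, KIF20A, KIF4A, RACGAP1 and ANLN overlap a gene on the opposite strand. Whether counting used strand is not given in the sources used here, so values of these 9 genes may hold reads of their partners. CENPA shares exon bases with SLC35F6 on the same strand, which had a median of 87.0 CPM where CENPA had 16.4. Among these 9, CDC25C and KIF20A had partners of higher level. FAM53C, the partner of CDC25C, had a median of 76.7 CPM where CDC25C had 15.9. Others had partners of comparable level, so they are uncertain too. EXOSC9 had 61.2 CPM where CCNA2 had 78.8, and PDZD11 had 29.7 where KIF4A had 58.3.

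The summed level of the 48 mRNAs fell most, among the 5 treatments, after IGF2BP2 knockout. In sgIGF2BP2 cells it was 4778, 4751, 4772 and 4685 CPM in the DMSO libraries and 4156, 4069.9, 4179.8 and 4092 CPM in the Dox libraries, a mean that was 13.1% lower. The groups did not overlap, and the lowest DMSO library lay above every Dox library. With the control guides the mean went from 4603 ± 61.4 to 4423 ± 34.1 CPM (SD, n = 4), or 3.91% lower, and in sgIGF2BP3 cells from 4702 ± 39.1 to 4479.8 ± 56.1 CPM, or 4.72% lower. The siIGF2BP2 pool moved the sum the other way, from 4597 ± 39.2 to 4857 ± 62.6 CPM, a mean 5.66% higher. With siIGF2BP3 it stood at 4664 ± 116 against 4627 ± 20.1 CPM, 0.787% higher with overlapping groups. In bulk libraries fewer dividing cells and less RNA per dividing cell cannot be told apart.

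**Figure D1:**
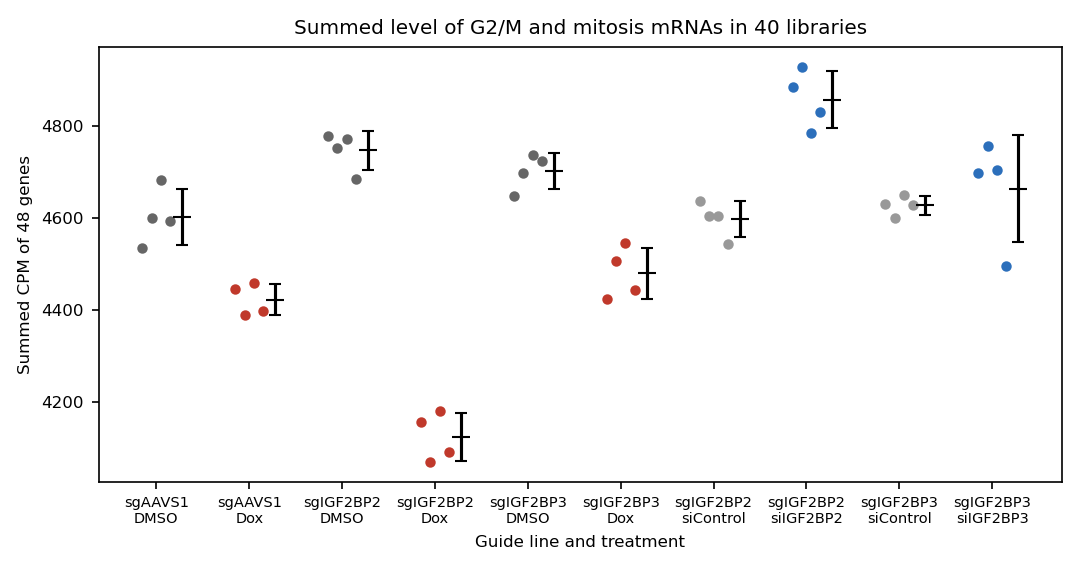
Summed CPM of the 48 genes (vertical axis, which does not start at 0) in each of the 40 libraries, by guide line and treatment. Points are libraries and bars are mean ± SD (n = 4). The 4 sgIGF2BP2 Dox libraries lie between 4069.9 and 4179.8 CPM, below every other library, and the 4 siIGF2BP2 libraries lie between 4785 and 4929 CPM.

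Gene by gene, calls were made with edgeR's quasi-likelihood test at a Benjamini-Hochberg adjusted p under 0.05 over all 11428 genes. After Dox in sgIGF2BP2 cells 38 of the 48 mRNAs were lower and none was higher, where 10.4% of all genes tested were called lower. Their median log2 fold change was −0.19, against 0.01 over all genes, and 44 of 48 were below 0. In sgAAVS1 cells 8 of 48 were lower and none higher, against 8.68% of all genes called lower. That count was 4 when replicate 2 of sgAAVS1 DMSO was left out and also 4 without its replicate 3, and without TMM scaling 3 were lower and 1 higher. In sgIGF2BP3 cells 4 of 48 were lower and none higher, against 1.01% of all genes. With siIGF2BP2, 22 of 48 were higher and 5 lower, where 18.4% of all genes were called higher and 18.4% lower. With siIGF2BP3 only 1 of 48 was higher and none lower, against 0.936% of all genes called higher, with 5 genes at an unadjusted p under 0.05. Against a change of at least 1.2-fold, 0 of the 38 calls after IGF2BP2 knockout remained, and 3 after siIGF2BP2 (1 higher, 2 lower). A call lost in that test does not show that the change was below 1.2-fold. The 95% interval lay within 1.2-fold in either direction for 13 of the 48 after IGF2BP2 knockout and for 28 after siIGF2BP2.

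**Figure D2:**
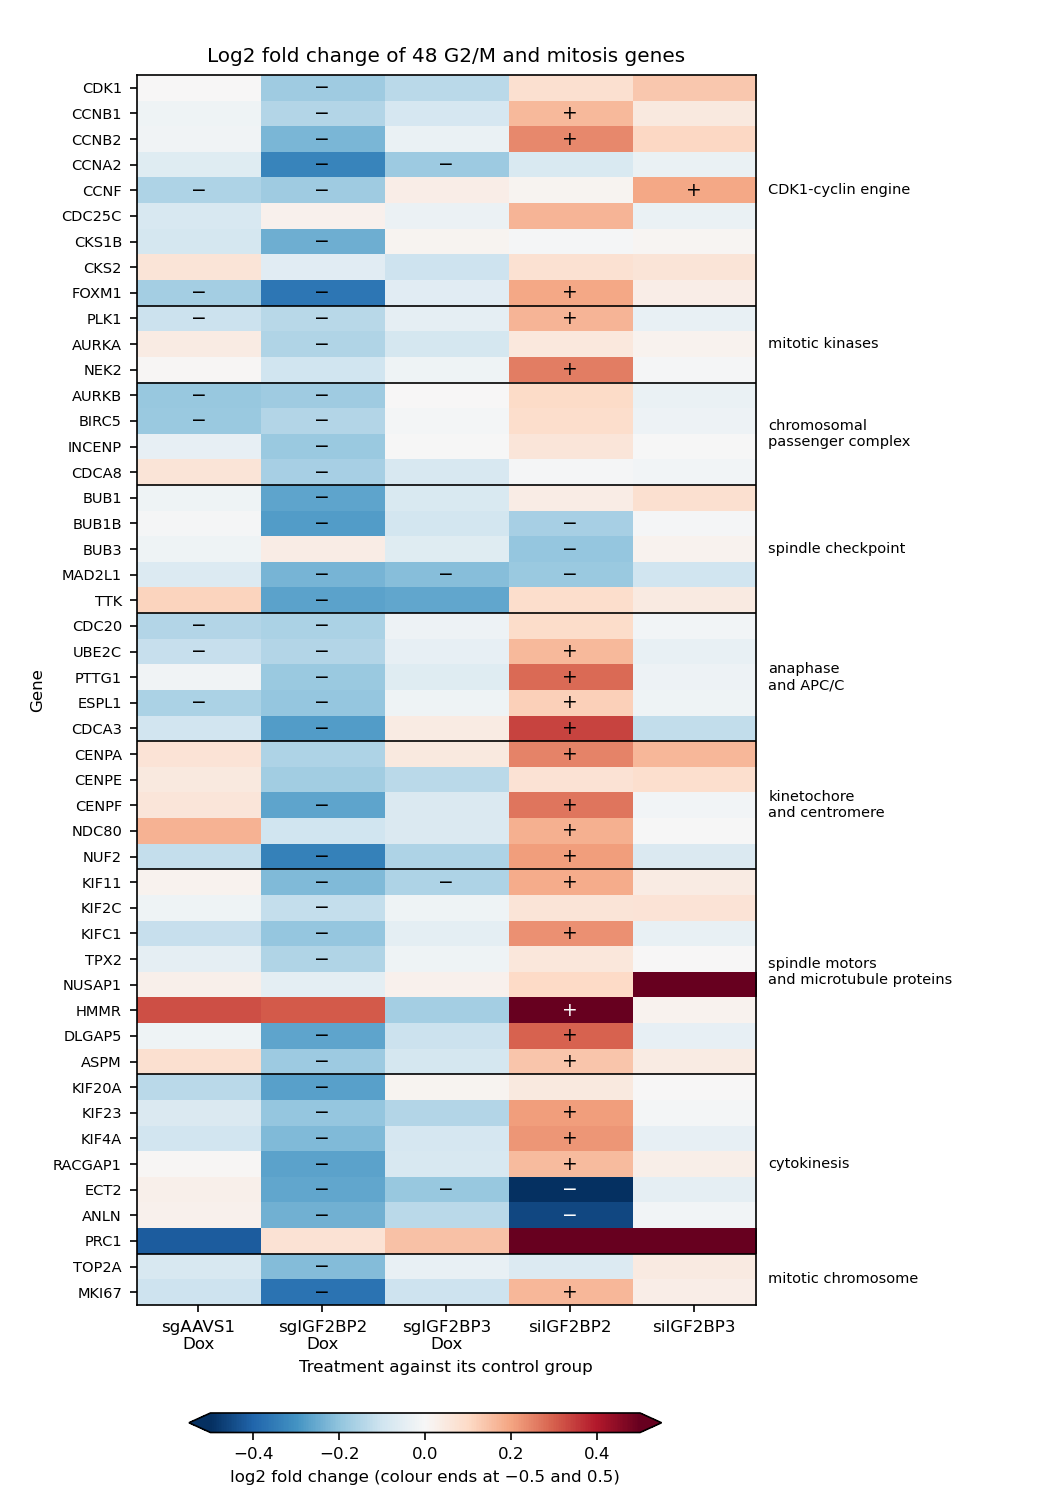
Log2 fold change (colour, ending at −0.5 and 0.5) of the 48 genes (rows, by role) in the 5 treatments (columns), each against its own control group. A plus or minus sign marks a call at an edgeR adjusted p under 0.05. The sgIGF2BP2 Dox column holds 38 minus signs, and the siIGF2BP2 column 22 plus and 5 minus signs.

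Within the CDK1-cyclin engine 7 of 9 mRNAs were lower after IGF2BP2 knockout and 3 of 9 were higher after siIGF2BP2. Over all genes tested, 10.4% were called lower after the knockout and 18.4% higher after the siRNA. FOXM1, the transcription factor of the G2/M programme (chromosome 12, 2857681 to 2877155, reverse strand, GRCh38), stood at 239.7, 261, 262 and 266 CPM with DMSO and at 206, 197, 211 and 189.7 CPM with Dox in sgIGF2BP2 cells. All 4 Dox libraries lay below all 4 DMSO libraries (log2 fold change of −0.36 with an SE of 0.034, edgeR adjusted p = 2.61e-13). It also fell in sgAAVS1 cells, from 253.9 ± 7.16 to 226 ± 4.92 CPM without overlap (−0.17, edgeR adjusted p = 0.00013). After siIGF2BP2 the 4 libraries stood at 299.6, 288, 287 and 299 CPM, above the 256, 255, 251 and 266 CPM of siControl (0.19, SE 0.033, edgeR adjusted p = 2.53e-06). So FOXM1 was lower with knockout and higher with siRNA in the same guide line.

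CCNA2 encodes cyclin A2, which works in S phase as well as in early mitosis. It stood at 79.0, 72.5, 78.6 and 77.6 CPM with DMSO and 63.8, 60.0, 57.4 and 63.4 CPM with Dox in sgIGF2BP2 cells, again without overlap (−0.33, SE 0.047, edgeR adjusted p = 9.86e-08). In sgIGF2BP3 cells it went from 77.6, 82.4, 79.0 and 76.7 to 69.5, 69.5, 73.9 and 66.2 CPM, also without overlap (−0.18, SE 0.046, edgeR adjusted p = 0.0178). With siIGF2BP2 it was not called (−0.08, edgeR adjusted p = 0.174), at 93.3, 80.5, 81.4 and 81.8 CPM. Its first library there lay far above the other 3.

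The mitotic cyclins B1 and B2, which activate CDK1, shared the pattern of FOXM1. CCNB2 stood at 74.1, 67.6, 71.6 and 70.3 CPM with DMSO and at 58.7, 60.9, 63.5 and 59.6 CPM with Dox in sgIGF2BP2 cells (−0.23, SE 0.049, edgeR adjusted p = 0.000302). With siIGF2BP2 it rose from 66.5, 70.7, 65.6 and 62.6 to 74.4, 81.3, 83.0 and 75.3 CPM (0.24, edgeR adjusted p = 3.47e-05). Neither pair of groups overlapped. CCNB1 was lower with Dox (−0.15, edgeR adjusted p = 0.00173) and higher with siIGF2BP2 (0.16, edgeR adjusted p = 0.00026). CDK1 itself fell with Dox (−0.18, edgeR adjusted p = 0.00593) and was not called with siIGF2BP2 (0.08, edgeR adjusted p = 0.194). CDC25C, the phosphatase that activates CDK1, and CKS2 were not called in any of the 5 treatments.

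Of the mitotic kinases, PLK1, which acts at centrosomes and kinetochores, and AURKA, which acts at spindle poles, were lower after IGF2BP2 knockout, and PLK1 and the centrosome kinase NEK2 were higher after siIGF2BP2. PLK1 went from 164 ± 4.43 to 149 ± 3.37 CPM with Dox (−0.14, edgeR adjusted p = 0.00573) and from 166 ± 2.60 to 187 ± 8.70 CPM with siIGF2BP2 (0.17, edgeR adjusted p = 0.000212). The chromosomal passenger complex corrects faulty attachments of chromosomes to the spindle. All 4 of its mRNAs (AURKB, BIRC5, INCENP and CDCA8) were lower after IGF2BP2 knockout, against 10.4% of all genes. Their log2 fold changes ran from −0.18 to −0.15. None was called after siIGF2BP2, where 18.4% of all genes were called in each direction. AURKB (−0.19) and BIRC5, which encodes survivin (−0.18), also fell in sgAAVS1 cells.

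BIRC5 lies on chromosome 17 (78214186 to 78225636), distal to SPOP on the long arm. SPOP stood at 36.7 ± 1.48 CPM with DMSO and 11.4 ± 1.22 CPM with Dox in sgAAVS1 cells (SD, n = 4). The 250 genes tested distal to SPOP had a median log2 fold change of −0.17 there, and 52% of them were called lower, so BIRC5 and genes around it were lower together in that line. In sgIGF2BP2 and sgIGF2BP3 cells the same genes had medians of 0.02 and 0.01. The part of this region in the count of 8 was not tested. BIRC5 was the 1 mitotic gene for which the Dox effect in sgIGF2BP3 cells was called higher than that in sgAAVS1 cells (0.18, SE 0.058, edgeR adjusted p = 0.0474), where 4.53% of all genes were called higher. That call was lost without TMM scaling, where 6 other genes were called lower instead, and it was also lost without replicate 1, 2 or 3 of sgAAVS1 DMSO, replicate 1, 2 or 4 of sgAAVS1 Dox, replicate 1, 2 or 4 of sgIGF2BP3 DMSO, or replicate 2, 3 or 4 of sgIGF2BP3 Dox.

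The spindle checkpoint holds back anaphase until every chromosome is attached, and its mRNAs did not follow the mitotic cyclins after siRNA. BUB1, BUB1B, MAD2L1 and TTK were lower after IGF2BP2 knockout, against 10.4% of all genes, and BUB3 was not called (0.04). After siIGF2BP2 none of the 5 was higher, and BUB1B, BUB3 and MAD2L1 were lower, where 18.4% of all genes were called in each direction. BUB1B, which encodes the checkpoint protein BUBR1, stood at 61.8, 67.0, 62.8 and 63.7 CPM with siControl and 56.4, 57.8, 52.5 and 60.5 CPM with siIGF2BP2, without overlap (−0.17, SE 0.046, edgeR adjusted p = 0.00316). With Dox it went from 66.3, 66.1, 65.5 and 61.8 to 57.6, 52.3, 50.5 and 53.5 CPM (−0.28, SE 0.047, edgeR adjusted p = 4.73e-06). MAD2L1 was lower in 3 treatments, by −0.23 with IGF2BP2 knockout, −0.21 with IGF2BP3 knockout and −0.18 with siIGF2BP2.

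Anaphase genes were the role in which all members fell with IGF2BP2 knockout and most rose with siIGF2BP2 (5 of 5 lower and 4 of 5 higher). Over all genes, 10.4% were called lower with the knockout and 18.4% higher with the siRNA. The rise of ESPL1 with siIGF2BP2 (0.12) was not called in 9 of 15 alternative runs. CDCA3, a trigger of mitotic entry that acts through ubiquitin ligation, stood at 47.2, 54.6, 54.1 and 47.3 CPM with DMSO and 43.9, 39.7, 42.6 and 42.2 CPM with Dox (−0.28, SE 0.053, edgeR adjusted p = 4.67e-05). With siIGF2BP2 it rose from 46.1, 46.2, 50.7 and 44.6 to 58.6, 60.2, 62.3 and 56.1 CPM (0.34, SE 0.051, edgeR adjusted p = 1.65e-07). Both comparisons were free of overlap. PTTG1, which encodes securin, the inhibitor of separase, stood at 89.5, 89.1, 89.7 and 88.8 CPM with DMSO and 77.1, 81.9, 81.8 and 73.4 CPM with Dox (−0.19, edgeR adjusted p = 0.0028). With siIGF2BP2 it reached 86.9, 89.7, 109 and 93.3 CPM, against 74.1, 81.2, 80.8 and 75.9 CPM with siControl (0.28, edgeR adjusted p = 1.44e-06). Replicate 3 of siIGF2BP2 was the highest of these. CDC20 was lower with Dox in sgIGF2BP2 and in sgAAVS1 cells (−0.16 and −0.15) and was not called with siIGF2BP2 (0.09, edgeR adjusted p = 0.0727).

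At the kinetochore, CENPF, a large protein that joins kinetochores in G2, and NUF2, a subunit of the NDC80 complex that holds microtubules, were lower after IGF2BP2 knockout. After siIGF2BP2 4 of 5 were higher, all but CENPE, where 18.4% of all genes were called higher. Of these 4 calls, that of NDC80 was lost in 11 of 15 alternative runs and that of CENPA in 3. CENPF stood at 187, 192, 181 and 180.0 CPM with DMSO and 161, 147, 156 and 154 CPM with Dox (−0.26, SE 0.041, edgeR adjusted p = 9.66e-07). With siIGF2BP2 it went from 186, 176, 189.8 and 185 to 237, 231, 197 and 223 CPM (0.27, SE 0.040, edgeR adjusted p = 9.77e-08). Replicate 3 of siIGF2BP2 was the lowest treated library and still lay above siControl. NUF2 fell with Dox by −0.34 (edgeR adjusted p = 6.5e-05), with overlap between the groups.

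Of 8 spindle motors and microtubule proteins, 6 were lower after IGF2BP2 knockout and 5 higher after siIGF2BP2. Over all genes, 10.4% were called lower and 18.4% higher in these comparisons. ASPM was among both counts, and its call was lost in 5 of 15 alternative runs with knockout and 11 of 15 with siIGF2BP2. DLGAP5, which stabilises spindle fibres at kinetochores, stood at 51.1, 44.3, 51.0 and 49.5 CPM with DMSO and 41.8, 40.2, 39.6 and 42.1 CPM with Dox (−0.26, SE 0.056, edgeR adjusted p = 0.000287). With siIGF2BP2 it rose from 46.0, 51.0, 48.7 and 47.8 to 61.1, 61.4, 57.8 and 57.1 CPM (0.29, SE 0.054, edgeR adjusted p = 8.76e-06). The groups did not overlap in either comparison. HMMR, a microtubule protein of spindle poles, showed the greatest rise with siIGF2BP2, 3.95 ± 0.387 to 6.29 ± 0.552 CPM (0.68, SE 0.142, edgeR adjusted p = 8.7e-05), on 38 to 98 counts per library. The motor KIF11, which pushes spindle poles apart, was lower with both knockouts (−0.22 and −0.15) and higher with siIGF2BP2 (0.18).

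Cytokinesis held the greatest falls of the 48 with siIGF2BP2 and rises beside them. ECT2, the exchange factor that activates RhoA at the cleavage site (chromosome 3, 172750682 to 172821474, forward strand), stood at 77.2, 75.9, 80.9 and 66.8 CPM with siControl and 35.2, 36.2, 32.4 and 36.0 CPM with siIGF2BP2. That left 46.4% of the control level, with the groups far apart (−1.11, SE 0.058, edgeR adjusted p = 7.37e-26). ANLN, the actin-binding scaffold of the cleavage ring, went from 149, 139, 145 and 131 to 109, 109, 91.0 and 103 CPM (−0.46, SE 0.045, edgeR adjusted p = 4.92e-13). RACGAP1 and KIF23, which form the centralspindlin complex that recruits ECT2, and the chromosome motor KIF4A were higher in the same libraries (0.16, 0.21 and 0.22).

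With IGF2BP2 knockout the same cytokinesis genes moved by similar amounts and in 1 direction. ECT2 stood at 73.7, 71.5, 76.8 and 69.8 CPM with DMSO and 64.8, 63.7, 55.0 and 59.9 CPM with Dox (−0.26, SE 0.054, edgeR adjusted p = 0.000192). ANLN went from 142, 124, 143 and 130.1 to 118, 111, 111 and 118 CPM (−0.24, SE 0.045, edgeR adjusted p = 4.46e-05), and KIF4A from 59.3, 56.6, 63.5 and 58.7 to 49.9, 52.8, 50.1 and 52.4 CPM (−0.22, SE 0.045, edgeR adjusted p = 0.000173). In these 3 genes no Dox library reached the DMSO range. ECT2 was also lower with IGF2BP3 knockout, at 73.5, 69.7, 71.6 and 62.3 CPM against 78.4, 78.2, 78.5 and 80.5 CPM (−0.19, SE 0.053, edgeR adjusted p = 0.0334). With siIGF2BP3 it was not called, at 76.0 ± 5.38 against 78.4 ± 2.72 CPM (−0.04).

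**Figure D3:**
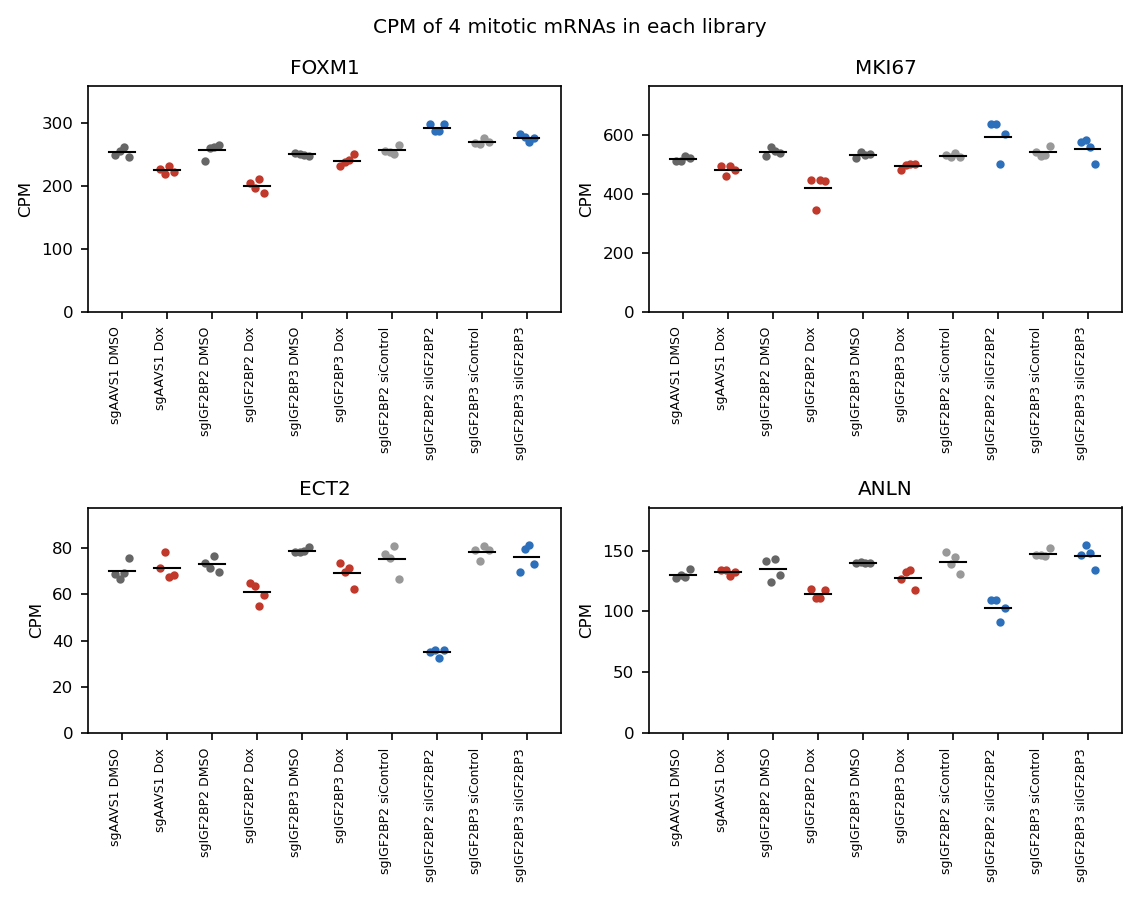
CPM (vertical axes from 0) of FOXM1, MKI67, ECT2 and ANLN in each library of the 10 groups. Points are libraries and lines are group means (n = 4). ECT2 lies between 32.4 and 36.2 CPM with siIGF2BP2 and at or above 55.0 CPM in every other library, and FOXM1 is lowest in the sgIGF2BP2 Dox group and highest in the siIGF2BP2 group.

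MKI67 encodes Ki-67, which coats mitotic chromosomes and serves as a marker of proliferation (chromosome 10, 128096659 to 128126385, reverse strand). In sgIGF2BP2 cells it stood at 529.8, 559.7, 546 and 540.0 CPM with DMSO and 449.7, 347, 447 and 446 CPM with Dox (−0.37, SE 0.049, edgeR adjusted p = 2.22e-08). Replicate 2 lay far below the others, and without it the change was −0.28 (edgeR adjusted p = 8.23e-07). With siIGF2BP2 it stood at 640.0, 637, 502 and 605 CPM against 533, 527, 539 and 525 CPM (0.17, SE 0.048, edgeR adjusted p = 0.00467). Replicate 3 lay below all 4 siControl libraries, and without it the change was 0.24 (edgeR adjusted p = 1.05e-05). TOP2A, the topoisomerase that untangles sister chromatids, fell with Dox (−0.22, edgeR adjusted p = 1.13e-05) and was not called with siIGF2BP2 (−0.07, edgeR adjusted p = 0.143).

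The sgAAVS1 line received Dox and Cas9 without IGF2BP guides, and the difference between Dox effects was tested directly. For 14 of the 48 mRNAs the change in sgIGF2BP2 cells was lower than that in sgAAVS1 cells, and for none higher, where 2.97% of all genes were called lower. The greatest differences were CENPF (−0.32, SE 0.058, edgeR adjusted p = 8.67e-05), ECT2 (−0.28, edgeR adjusted p = 0.0129), RACGAP1 (−0.27) and BUB1B (−0.27). MKI67 (−0.26) and FOXM1 (−0.19) were among the 14. PLK1, CDC20 and BIRC5, which fell in both lines, were not called for the difference, at −0.03 (95% interval −0.14 to 0.08), −0.01 (−0.13 to 0.10) and 0.04 (−0.08 to 0.15). BIRC5 lies distal to SPOP, where genes were lower together in sgAAVS1 cells. The part of that region in its difference was not tested. The count ranged from 8 to 17 when single libraries were left out, with 8 without replicate 3 of sgIGF2BP2 DMSO. Only 5 of the 14 were called in every alternative run except the 1.2-fold test.

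The Dox effect in sgIGF2BP3 cells was called higher than that in sgIGF2BP2 cells for 4 mRNAs and lower for none, against 1.69% of all genes called higher. These were CDCA3 (0.32), FOXM1 (0.30), MKI67 (0.26) and TOP2A (0.18). In sgIGF2BP3 cells CCNA2, MAD2L1, ECT2 and KIF11 made up the 4 calls, and none remained when replicate 4 of sgIGF2BP3 Dox was left out, 1 was made without replicate 2 of either sgIGF2BP3 group, and 2 without replicate 3 or 4 of its DMSO group. For 39 of the 48 the 95% interval of the IGF2BP3 knockout effect lay within 1.2-fold in either direction. The same held for 43 of 48 with siIGF2BP3. The 1 call with siIGF2BP3 was CCNF, cyclin F, at 94.1 ± 5.57 against 82.5 ± 5.45 CPM with overlap (0.19, SE 0.047, edgeR adjusted p = 0.0103). It was lost without replicate 3 or 4 of siControl and without replicate 1 of siIGF2BP3.

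The IGF2BP2 siRNA and the IGF2BP2 knockout share no library, and both were read in the same guide line, but they differ in duration (48 against 72 hours), in delivery and in the agent. With 1 siRNA pool against IGF2BP2, effects of the pool itself and of IGF2BP2 loss cannot be told apart, which holds for ECT2 and ANLN as for the other genes. Of the 22 mRNAs higher with siIGF2BP2, 18 were lower with Dox, and NEK2, CENPA, NDC80 and HMMR were not called with Dox. Of the 5 lower with siIGF2BP2, BUB1B, MAD2L1, ECT2 and ANLN were lower with Dox too. A test of the difference was added after these values were seen. The siRNA effect was higher than the Dox effect for 35 of the 48 and lower for 3, where 12.4% of all genes were called higher and 13.7% lower. The greatest differences were CDCA3 (0.62), DLGAP5 (0.56), FOXM1 (0.55) and NUF2 (0.55) on the higher side, and ECT2 (−0.85), BUB3 (−0.23) and ANLN (−0.22) on the lower side. For MKI67 the difference was 0.53 (SE 0.069, edgeR adjusted p = 4.37e-09).

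**Figure D4:**
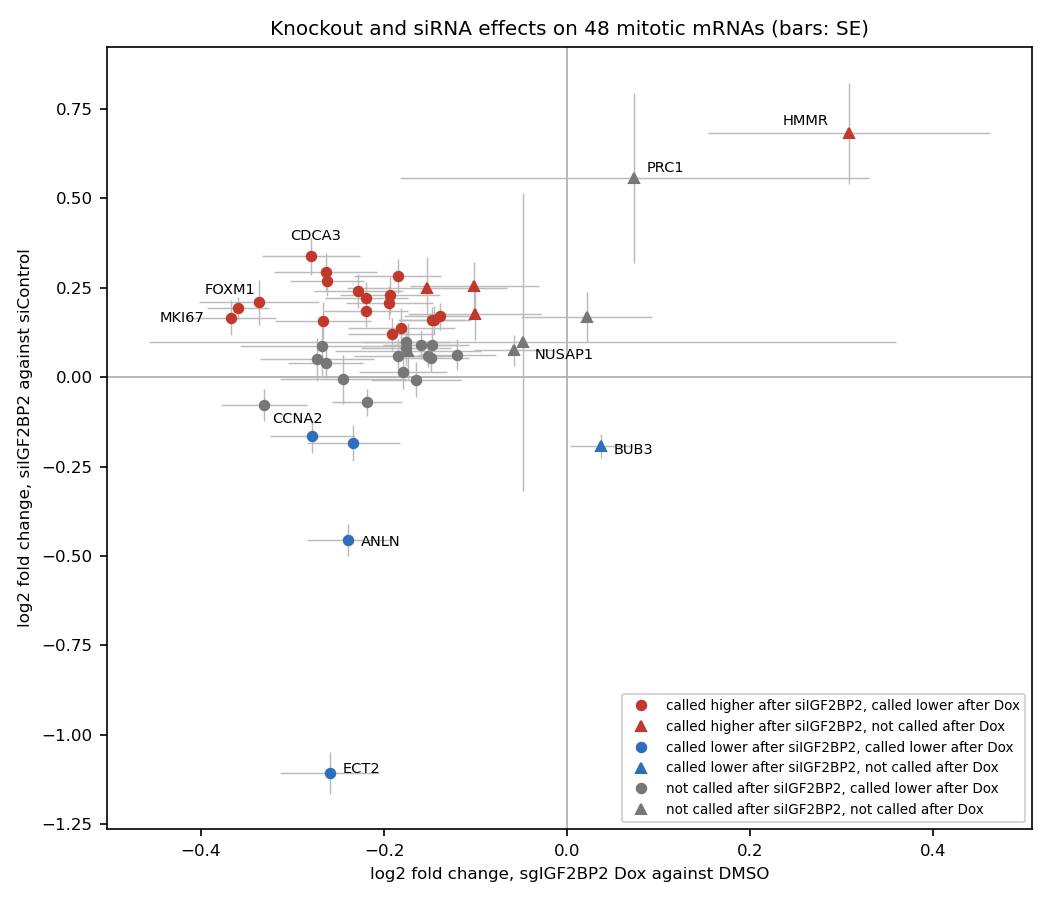
Log2 fold change of each of the 48 genes with IGF2BP2 knockout (horizontal, sgIGF2BP2 Dox against DMSO) and with siRNA (vertical, siIGF2BP2 against siControl), with standard errors as bars. The 18 red circles were lower with Dox and higher with siRNA, and the 4 blue circles (BUB1B, MAD2L1, ANLN and ECT2) were lower with both.

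The siIGF2BP3 effect, read in the sgIGF2BP3 line, differed from the siIGF2BP2 effect for 16 of the 48. It was higher for 4 (ECT2 1.06, ANLN 0.44, BUB3 0.21 and CCNF 0.18), where 9.88% of all genes were called higher. It was lower for 12, led by HMMR (−0.66), CDCA3 (−0.46), DLGAP5 (−0.34) and PTTG1 (−0.31), where 8.82% of all genes were called lower. The siRNA pools and the guide lines differ together, so pool and line cannot be told apart.

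Control siRNA and DMSO groups of a line differed too, and these groups differ in transfection as well as in the agent. In sgIGF2BP2 cells 2 of the 48 were higher with siControl, against 10.2% of all genes, and 7 lower, against 8.16%. In sgIGF2BP3 cells 5 were higher, against 10.9%, and 11 lower, against 8.54%. The separase gene ESPL1 (0.29 and 0.27) and CCNA2 (0.20 and 0.17) were higher with siControl in both lines, and CDC20 (−0.22 and −0.19) and CDK1 (−0.17 and −0.20) were lower in both. In uninduced lines none of the 48 was called between sgIGF2BP2 and sgAAVS1 DMSO cells or between sgIGF2BP3 and sgAAVS1 DMSO cells, by edgeR or by DESeq2, where 0.0175% of all genes were called in each. At an unadjusted p under 0.05 there were 6 and 8 of the 48.

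Other lists of the cell cycle were read from the same tests. The 26 G1/S genes, which license and copy DNA, were mostly lower with IGF2BP2 knockout (23 lower and none higher, led by ORC1 at −0.39 and MCM7 at −0.35), against 10.4% of all genes called lower. With siIGF2BP2 7 of 26 were higher and 2 lower, where 18.4% of all genes were called in each direction. Of 20 condensin and cohesin genes, which shape and hold chromatids, 15 were lower with IGF2BP2 knockout, led by SGO2 (−0.34) and NCAPG (−0.32). Of 17 outer kinetochore genes 9 were lower. Of 15 DREAM and MuvB regulators 6 were lower, led by MYBL2, which encodes B-MYB (−0.33), while the 2 of 17 subunits and regulators of the anaphase-promoting complex that were lower lie near the 10.4% of all genes. Falls were not confined to that line. In sgAAVS1 cells MYBL2 (−0.22), E2F4, TFDP1, RBL1, E2F1 and E2F8 were lower too, against 8.68% of all genes. So were NCAPD2, NCAPG (−0.20), NCAPD3, NCAPH2 and CDCA5 of the condensin and cohesin genes, with none of either list higher. In sgIGF2BP3 cells the cohesin genes RAD21 (−0.14) and STAG1 (−0.17) were lower, against 1.01% of all genes. ZWINT (−0.13) and SKA3 (−0.19) of the outer kinetochore genes were lower there as well. With siIGF2BP2, where 18.4% of all genes were called in each direction, the regulators E2F8 (0.55) and E2F1 (0.36) were higher. The G1 cyclins CCNE1 (−0.83) and CCND1 (−0.80), from a list of genes around mitotic entry, were lower. They were named for the size of their change and do not stand for their lists. With IGF2BP2 knockout CCND1 was higher (0.14, edgeR adjusted p = 0.00119) and CCNE1 was not called.

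All 19 p53 targets tested were higher with IGF2BP2 knockout, with a median log2 fold change of 0.61, led by BTG2 (1.37) and GDF15 (1.31), where 10% of all genes were called higher. PLK2 was listed as well but was not among the genes tested. In sgAAVS1 cells 11 of 19 were higher (median 0.20), against 7.25% of all genes, with 8 of the 48 mitotic mRNAs and 12 of 26 G1/S genes lower (8.68% of all genes). In sgIGF2BP3 cells 11 were higher as well (median 0.23), against 1.64% of all genes, with 4 mitotic and 2 G1/S mRNAs lower (1.01% of all genes). With siIGF2BP2 5 of 19 p53 targets were higher and 6 lower (median 0.00), not far from the 18.4% of all genes called in each direction. Whether the p53 targets had a part in the changes of the mitotic mRNAs was not tested.

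**Figure D5:**
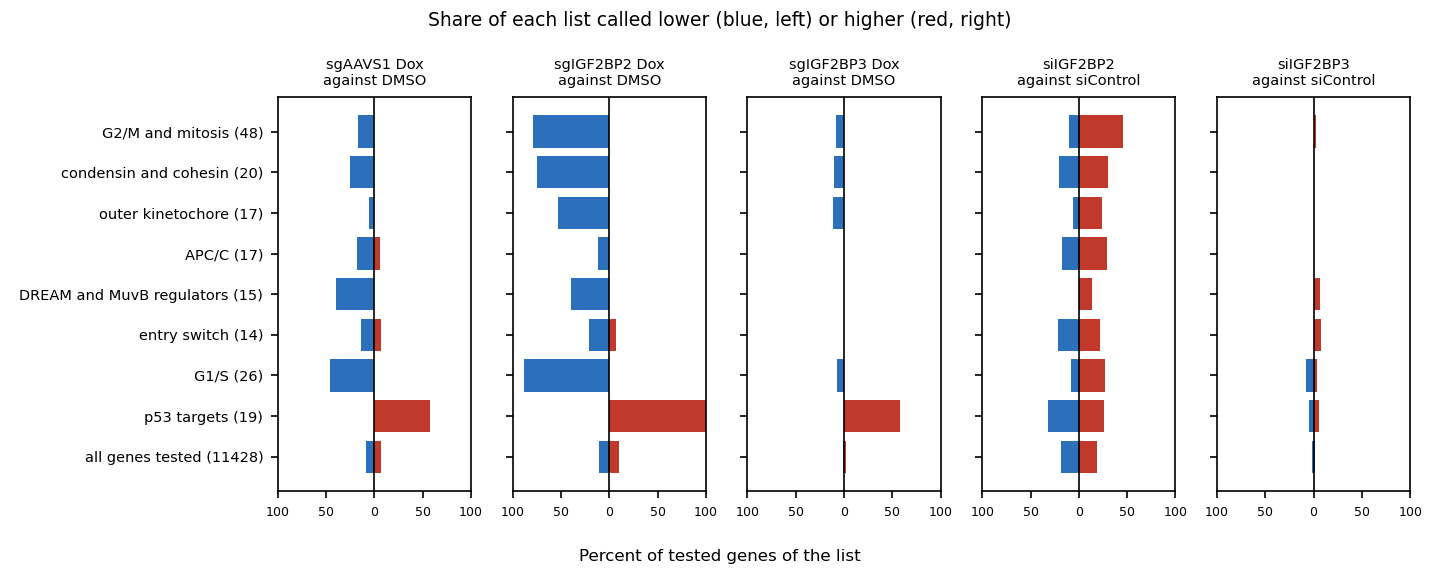
Share of each gene list called lower (left, blue) or higher (right, red) in the 5 treatments, in percent of the genes tested, whose number stands in brackets. With IGF2BP2 knockout 38 of 48 mitotic and 23 of 26 G1/S genes were lower and 19 of 19 p53 targets higher.

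Genes with and without CHR letters were compared by their medians. With IGF2BP2 knockout the 23 genes with the letters had a median log2 fold change of −0.19 and 19 were lower, and the 17 without them had a median of −0.19 and 12 were lower. With siIGF2BP2 the medians were 0.12 and 0.16. When 50 bases after the start were included, 31 of the 40 promoters held CHR letters (77.5%, against 16.6% of all promoters). So some of the 17 genes hold the letters just after the start, and the split depends on the window. Whether the letters had a part in the changes was not tested. Within groups, after removing the group mean, pairs of the 48 genes had a median Pearson r of 0.04 over the 40 libraries, a description of libraries that share depth and scaling. The mean log2 level of the 48 in a library departed from its group's mean by −0.03 to 0.03.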

How the data were processed

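The authors deposited 1 table of unnormalized whole-number counts of reads per gene for the 40 libraries. Per the submitters' processing notes, hg38, STAR 2.7.5c and bcl2fastq 2.20.0.422 were used. The counting tool, its annotation and its use of strand are not given in the sources used here. New and old RNA were not told apart in these counts. Symbols were matched through GENCODE release 29.

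Genes were kept with filterByExpr by group and tested in edgeR 4.0.16 (R 4.3.3) with TMM scaling, glmQLFit and glmQLFTest on all 40 libraries with 1 coefficient per group, and Benjamini-Hochberg adjustment over the 11428 genes. The edgeR fit and its test of sgAAVS1 Dox against DMSO were tried on simulated counts, with changes larger than most reported here. The other steps were not tried in this way. Alternatives were DESeq2 1.42.0, no TMM scaling, no filter, fits on the compared groups alone, a replicate block, thinning, a 1.2-fold test and leaving out each library. Promoter letters were read from RefSeq sequences.

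The 48 genes and the lists were chosen with earlier results of these data known. Per comparison the text may name 8 fixed genes (CDK1, CCNB1, PLK1, CDC20, TOP2A, MKI67, FOXM1 and BIRC5) and up to 4 called rises and 4 falls of greatest size, with per-library values for up to 12 genes called in 2 or more treatments, and up to 2 rises and 2 falls from each other list. Other genes named were chosen after their values were seen.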

Additional observations from a re-analysis of the deposited data

Results flagged for a closer look

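Libraries of the 12 genes given per library, and of the summed level, were compared within each group of 4, and a library was singled out when its gap to the nearest other as a share of the group's range exceeded Dixon's 95% critical value for 4 samples. This happened in 10 of 130 groups, where chance gives about 1 in 20. In DMSO groups these were CENPF at 178 CPM in replicate 4 and CDCA3 at 54.7 CPM in replicate 2 of sgAAVS1, FOXM1 at 239.7 CPM in replicate 1 of sgIGF2BP2 and ECT2 at 80.5 CPM in replicate 4 of sgIGF2BP3. In Dox groups they were MKI67 at 347 CPM in replicate 2 of sgIGF2BP2 and at 484 CPM in replicate 1 of sgIGF2BP3. In siRNA groups they were CCNA2 at 93.3 CPM in replicate 1 of siIGF2BP2, and, in siControl of sgIGF2BP3, ANLN at 152 CPM in replicate 4 with CDCA3 at 45.8 CPM and CCNB2 at 58.4 CPM in replicate 1.

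Some effects differed between lines or agents by a test of the difference itself, at an edgeR adjusted p under 0.05. The Dox effect in sgIGF2BP2 cells minus that in sgAAVS1 cells was called for 14 genes, among them CENPF (−0.32), ECT2 (−0.28), RACGAP1 (−0.27), BUB1B (−0.27), MKI67 (−0.26) and FOXM1 (−0.19). The Dox effect in sgIGF2BP3 cells differed from that in sgAAVS1 cells for 1 gene, BIRC5 (0.18), and from that in sgIGF2BP2 cells for 4, CDCA3 (0.32), FOXM1 (0.30), MKI67 (0.26) and TOP2A (0.18).

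The siIGF2BP3 effect minus the siIGF2BP2 effect was called for 16 genes, among them ECT2 (1.06), ANLN (0.44), BUB3 (0.21), CCNF (0.18), HMMR (−0.66), CDCA3 (−0.46), DLGAP5 (−0.34), PTTG1 (−0.31), PLK1 (−0.21) and FOXM1 (−0.16). The siIGF2BP2 effect minus the Dox effect in sgIGF2BP2 cells was called for 38 genes. Among these were CDCA3 (0.62), DLGAP5 (0.56), FOXM1 (0.55), NUF2 (0.55), MKI67 (0.53), PLK1 (0.31), CCNB1 (0.31), CDK1 (0.26), CDC20 (0.25), BIRC5 (0.24) and TOP2A (0.15), and on the lower side ECT2 (−0.85), BUB3 (−0.23) and ANLN (−0.22).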

How the results depend on the processing

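Counts of called members are given here with the setting that changed them. Tested against a 1.2-fold change, 0 members were called with Dox in any line, with siIGF2BP3, for the 3 differences between Dox effects, or between siControl and DMSO. Under that test 3 were called with siIGF2BP2 (1 higher, 2 lower), 3 for the difference between siRNA effects (2 higher, 1 lower), and 10 for the siIGF2BP2 effect minus the sgIGF2BP2 Dox effect. Without TMM scaling the count was 4 in sgAAVS1 cells, 2 for sgIGF2BP3 minus sgIGF2BP2 Dox effects and 6, all lower, for sgIGF2BP3 minus sgAAVS1. That last count was 3 without the filter on low counts, 5 with only its own groups in the fit and 3 with the replicate block. Thinned to the smallest library, the sgIGF2BP3 Dox count was 1. Same-numbered replicates varied together weakly at most (r from −0.11 to 0.14). In the 5 treatments r lay from −0.11 to 0.05. Between siControl and DMSO in sgIGF2BP2 cells it was 0.05 to 0.11, where the median for other numbers was −0.02. With the replicate block the count stayed at 38 for sgIGF2BP2 Dox and was 28 for siIGF2BP2, and apart from sgIGF2BP3 minus sgAAVS1 no count moved by over 1.5 times.

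Leaving out each library in turn gave 4 to 8 calls in sgAAVS1, 34 to 38 in sgIGF2BP2 (34 without Dox replicate 2) and 0 to 3 in sgIGF2BP3 Dox, 24 to 30 with siIGF2BP2 and 0 to 1 with siIGF2BP3. For differences it gave 8 to 17 (sgIGF2BP2 minus sgAAVS1), 0 to 4 (sgIGF2BP3 minus sgAAVS1), 3 to 6 (sgIGF2BP3 minus sgIGF2BP2), 14 to 18 (siRNA effects) and 34 to 39 (siRNA minus Dox). Between siControl and DMSO it gave 8 to 12 in sgIGF2BP2 and 12 to 16 in sgIGF2BP3. Of the 38 calls in sgIGF2BP2 Dox, 30 were made in every alternative run except the 1.2-fold test, and 23 of 27 with siIGF2BP2. Other calls held less often, at 3 of 8 in sgAAVS1 Dox, 0 of 4 in sgIGF2BP3 Dox and 0 of 1 with siIGF2BP3. For differences it was 5 of 14 (sgIGF2BP2 minus sgAAVS1), 0 of 1 (sgIGF2BP3 minus sgAAVS1) and 2 of 4 (sgIGF2BP3 minus sgIGF2BP2). It was 13 of 16 for siRNA effects and 31 of 38 for siRNA minus Dox. The cause of these changes was not tested.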
